A study of Mus musculus with 6 samples.

Results

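The genes described here are the basal keratins Krt5, Krt14 and Krt15 and the stress keratins Krt6a, Krt6b, Krt16 and Krt17 in mouse tongue tumours. The 7 genes were found by their symbols among 18437 genes measured, and all 7 were present and passed the filter on low values. Keratins are the intermediate filament proteins of epithelial cells, and each filament is built from pairs of an acidic type I chain and a basic type II chain. Krt5 (type II) and Krt14 (type I) form the filament pair of the dividing basal layer of stratified epithelia, and Krt15 is a further type I keratin of basal cells. Krt6a and Krt6b (type II) with Krt16 and Krt17 (type I) are induced in skin on wounding and in hyperproliferative and squamous tumour epithelium, and are made without injury in parts of the oral lining such as the filiform papillae of the tongue.

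The tumours were grown in C57BL/6 mice by orthotopic injection into the tongue of 4MOSC1 cells, a line of oral squamous carcinoma from the mouse. The control group received 4MOSC1-con cells and the LIGHT group received 4MOSC1-LIGHT cells, which overexpress LIGHT (the product of Tnfsf14, a TNF family ligand), and each group had 3 libraries. Whether the LIGHT cells are a single clone, the age and sex of the mice and the time of collection are not stated in the labels, and no library is tied to an animal. The p-values therefore measure the spread between these libraries, which may be technical. Each library is bulk RNA of whole tumour tissue, in which fewer cells of a type and less RNA per cell cannot be told apart.

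The 7 genes lie in the 2 mouse keratin clusters (GRCm38.p6, RefSeq coordinates). The type II members are on chromosome 15, with Krt6b at chr15:101676023-101680293, Krt6a at chr15:101689928-101694305 and Krt5 at chr15:101707069-101712905. The type I members are on chromosome 11, with Krt15 at chr11:100131759-100135949, Krt14 at chr11:100203162-100207510, Krt16 at chr11:100246091-100248902 and Krt17 at chr11:100256215-100261029. Several are close copies of each other, which matters for short reads. In a global alignment the Krt6a and Krt6b coding sequences were identical at 97.8% of 1659 aligned bases, with an unbroken identical run of 280 bases. Krt14 and Krt16 were identical at 86.5% of aligned bases, Krt14 and Krt17 at 84.1%, and Krt5 and Krt6a at 81.5%. Of all 100-base windows of the Krt6a transcript, 34.0% also occur in the transcript of another gene, as do 30.6% for Krt6b, 24.3% for Krt16, 2.88% for Krt14, 2.38% for Krt5 and 0% for Krt15 and Krt17. For Krt16 the partner with the most shared windows is Gm11597, an annotated pseudogene, which holds 21.2% of the Krt16 windows. The labels do not state how reads that fit several copies were split, so the separate levels of Krt6a, Krt6b and Krt16 carry this uncertainty most. Krt14 and Krt5 carry it less, and Krt15 and Krt17 do not at that window length. With 50-base windows the shared parts were larger: 49.5% for Krt6a, 50.1% for Krt6b, 37.6% for Krt16, 14.4% for Krt14, 8.52% for Krt5, 4.0% for Krt17 and 0.67% for Krt15.

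To show bases that tell the copies apart, 60-base coding stretches are printed from GENCODE M21 transcripts (GRCm38, minus strand, 5′ to 3′). For the closest type II and type I pairs, each is the ungapped stretch within an exon of both genes with the most differences. Sequence outside the coding part was not searched. The printed stretches were picked for their differences, so they differ more than the coding sequences as a whole. Capitals mark bases that differ within the pair. The Krt6a and Krt6b stretches both lie in exon 4, at chr15:101692484-101692543 and chr15:101678303-101678362, and differ at 10 bases. The Krt14 and Krt16 stretches both lie in exon 5, at chr11:100204463-100204522 and chr11:100247141-100247200, and differ at 24 bases.
Krt6a: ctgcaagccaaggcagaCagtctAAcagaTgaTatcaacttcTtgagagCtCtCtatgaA
Krt6b: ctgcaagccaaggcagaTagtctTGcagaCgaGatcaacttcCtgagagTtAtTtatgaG
Krt14: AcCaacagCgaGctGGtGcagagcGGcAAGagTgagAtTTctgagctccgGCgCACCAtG
Krt16: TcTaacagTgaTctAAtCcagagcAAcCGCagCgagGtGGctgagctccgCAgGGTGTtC

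Values are TPM, the share of a library's transcripts that come from a gene after correction for gene length, so levels can be compared between genes. The read depth behind them is not known, and they carry no counting interval. Tnfsf14 was at 0.53 to 0.79 TPM in the control and 23.9 to 26.2 TPM in the LIGHT libraries, higher in every library labelled LIGHT. Genes were tested on log2(TPM + 1) with limma over 13167 genes, and fold changes below are differences on that scale, LIGHT minus control, with Benjamini-Hochberg adjusted p-values over all genes tested. On this test 23.1% of all genes tested were called, 17.7% as higher and 5.41% as lower in LIGHT tumours, and the median over the tested genes was 0.09 on the log2 scale (-0.04 after quantile normalization and -0.0019 after trimmed-mean scaling). LIGHT replicate 2 stood apart for several members: Krt14, Krt6a, Krt6b and Krt16 were each lowest in that library, which also had the highest summed levels of skeletal muscle and red blood cell markers.

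The keratins of this group were among the most abundant transcripts of the tumours. Together the 7 genes made up 3.28% to 4.01% of all TPM in the control libraries and 2.17% to 3.37% in the LIGHT libraries, ranges that overlap. By mean TPM, Krt14 ranked 6th of all genes in both groups, Krt6a 11th in control and 17th in LIGHT tumours, and Krt15 604th and 973rd. In control tumours the order of levels was Krt14, Krt6a, Krt6b, Krt5, Krt16, Krt17 and Krt15. Neighbours in that order did not overlap between libraries except Krt6b and Krt5. In LIGHT tumours Krt5 stood above Krt6b, and the ranges of Krt6a, Krt5, Krt6b, Krt16 and Krt17 each overlapped that of the next, while Krt14 stayed above and Krt15 below all others.

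**Figure D1:**
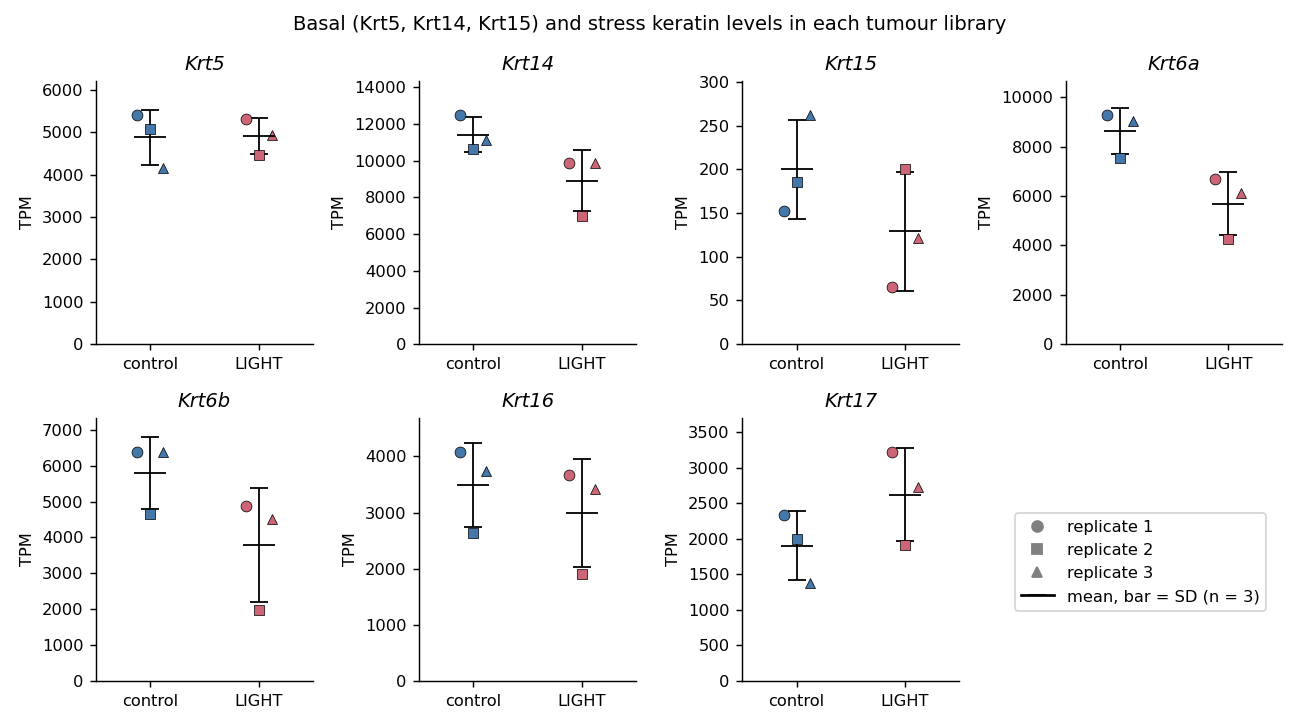
TPM of each basal and stress keratin in the 3 control (blue) and 3 LIGHT (red) libraries, with the replicate shown by the marker and the mean and SD (n = 3) in black; each axis starts at 0. The LIGHT libraries lie below all control libraries for Krt14 and Krt6a, and the groups overlap for the other 5 genes.

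Of the basal keratins, Krt5, the type II chain of the basal pair, was at 5395, 5081 and 4151 TPM in control replicates 1, 2 and 3 and at 5319, 4470 and 4929 TPM in the LIGHT libraries. The LIGHT values lay within the range of the controls. The means were 4875 ± 647 and 4906 ± 425 TPM (SD, n = 3 each), a log2 fold change of 0.01 (SE 0.12, 95% interval -0.27 to 0.30, limma adjusted p = 0.948). Krt14, its type I partner, was at 12469, 10648 and 11146 TPM in control and 9871, 7000 and 9878 TPM in LIGHT libraries. All 3 LIGHT libraries were below all 3 controls, with replicate 2 the lowest. The means were 11421 ± 941 and 8916 ± 1659 TPM (SD, n = 3 each), a log2 fold change of -0.37 (SE 0.15, 95% interval -0.72 to -0.02) that missed the threshold (limma adjusted p = 0.118). The ratio of Krt14 to Krt5, chosen after its values were seen, was 2.31, 2.10 and 2.69 in control and 1.86, 1.57 and 2.00 in LIGHT libraries, without overlap.

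Krt15, the least abundant member, was at 152, 186 and 262 TPM in control and 65.6, 200 and 121 TPM in LIGHT libraries. LIGHT replicates 1 and 3 were below every control and LIGHT replicate 2 was above 2 of them. The log2 fold change was -0.73 (SE 0.38, 95% interval -1.61 to 0.14, limma adjusted p = 0.202), and without LIGHT replicate 2 it was -1.12 (limma adjusted p = 0.0541). Krt15 was the member whose highest LIGHT value was in replicate 2, where the other 6 had their lowest.

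Among the stress keratins only Krt6a passed the test. It was at 9266, 7558 and 9051 TPM in control and 6678, 4270 and 6137 TPM in LIGHT libraries. Every LIGHT library was below every control. Krt6a fell from 8625 ± 931 to 5695 ± 1264 TPM (SD, n = 3 each), to 66.0% of the control mean (log2 fold change -0.62, SE 0.18, 95% interval -1.03 to -0.21, limma adjusted p = 0.0406). The call was close to the threshold: it was lost without any 1 of control replicates 1, 2 and 3 and LIGHT replicates 2 and 3 (limma adjusted p from 0.055 to 0.114), and the estimate without LIGHT replicate 2 was -0.42. After quantile normalization the log2 fold change was -0.28 (limma adjusted p = 0.384).

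Krt6b, the near copy of Krt6a, was at 6372, 4648 and 6379 TPM in control and 4880, 1978 and 4509 TPM in LIGHT libraries. LIGHT replicate 1 was above control replicate 2, so the groups overlap. Its log2 fold change of -0.71 (SE 0.33, 95% interval -1.47 to 0.06) was no smaller than that of Krt6a, but the spread was wider and it missed the threshold (limma adjusted p = 0.163). Without LIGHT replicate 2 the estimate was -0.29. The sum of Krt6a and Krt6b depends less on how reads were split between them, but would change if shared reads were left out or given to other genes. It was 15638, 12205 and 15430 TPM in control and 11559, 6248 and 10646 TPM in LIGHT libraries, lower in all 3 LIGHT libraries. Krt6b to Krt6a was 0.688, 0.615 and 0.705 in control and 0.731, 0.463 and 0.735 in LIGHT libraries, so only LIGHT replicate 2 lay away from the rest.

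Krt16, the type I keratin usually made with Krt6, was at 4077, 2639 and 3738 TPM in control and 3664, 1898 and 3412 TPM in LIGHT libraries. The groups overlap, with replicate 2 the lowest in each. The log2 fold change was -0.25 (SE 0.27, 95% interval -0.87 to 0.37, limma adjusted p = 0.532), and it was 0.045 without LIGHT replicate 2. Krt17, a type I stress keratin of wounds, hair follicles and carcinomas, was at 2341, 1994 and 1378 TPM in control and 3222, 1917 and 2731 TPM in LIGHT libraries. LIGHT replicates 1 and 3 were above every control and LIGHT replicate 2 lay within the control range. Its log2 fold change was 0.46 (SE 0.24, 95% interval -0.09 to 1.02, limma adjusted p = 0.202), and without LIGHT replicate 2 it was 0.67 (limma adjusted p = 0.0862).

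In all, 1 of 7 members was called lower (14.3%, against 5.41% of all tested genes) and 0 of 7 higher (against 17.7%). The groups did not overlap for 2 of 7 members (28.6%), both lower, against 41.2% of all tested genes in either direction and 11.6% as lower. The median log2 fold change was -0.37 over the 7 members, -0.37 over the 3 basal and -0.44 over the 4 stress keratins, beside 0.09 over all tested genes. Krt14 and Krt6a each gave p = 0.1 when their 6 values were permuted between groups (exact, two-sided), the smallest p that 20 assignments allow. With 1 of 7 called against 23.1% of all tested genes in either direction, the members were not called more often than genes at large, and their estimates spread from -0.73 to 0.46. The signs of the estimates for Krt14, Krt15, Krt6a, Krt6b, Krt16 and Krt17 held after trimmed-mean scaling and quantile normalization, whereas that of Krt5 was -0.08 after trimmed-mean scaling.

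**Figure D2:**
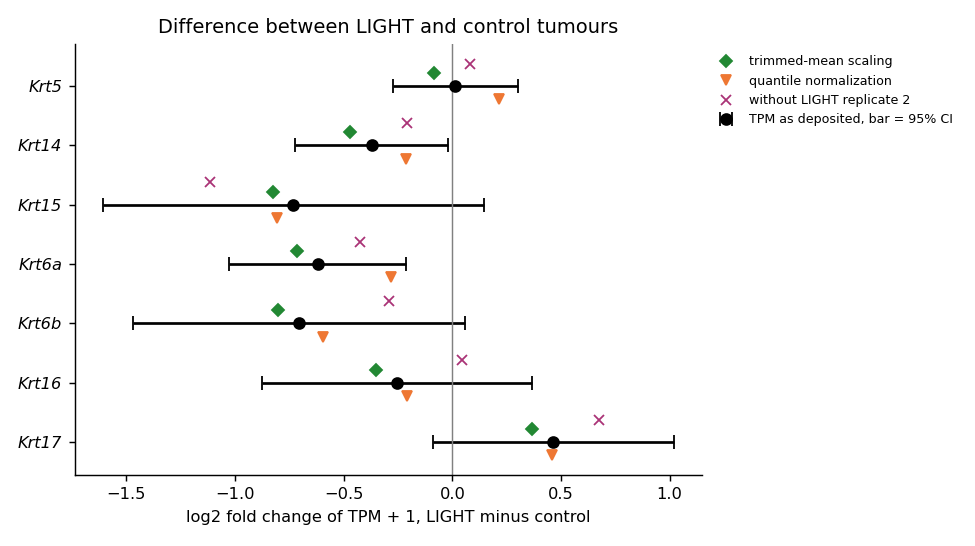
Log2 fold change of TPM + 1, LIGHT minus control, for each member (black, with the 95% confidence interval of the limma fit), with the estimate after trimmed-mean scaling, after quantile normalization and without LIGHT replicate 2. The interval excludes 0 for Krt6a and Krt14, of which Krt6a passed the adjusted threshold, and the estimate of Krt17 is above 0 in each setting drawn.

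Ratios within a library do not depend on how that library was scaled. The summed stress keratins relative to the basal pair Krt5 and Krt14 were 1.23, 1.07 and 1.34 in control and 1.21, 0.877 and 1.13 in LIGHT libraries. The groups overlap, and the mean log2 ratios were 0.28 ± 0.17 and 0.09 ± 0.25 (SD, n = 3 each), so stress keratins as a group were not separated from the basal pair beyond the spread. The summed type I members relative to the type II members were 0.905, 0.895 and 0.844 in control and 0.997, 1.03 and 1.04 in LIGHT libraries. These groups do not overlap, with mean log2 ratios of -0.18 ± 0.05 and 0.03 ± 0.03 (SD, n = 3 each). Over all keratins of each type the ratio was 1.19 to 1.28 in control and 1.21 to 1.40 in LIGHT libraries, which overlap. Both summed ratios are scores over the members and carry no test.

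Other ratios, Krt14 to Krt5 and Krt6b to Krt6a above included, were chosen after their values were seen and are descriptions. Krt17 to Krt6a was 0.253, 0.264 and 0.152 in control and 0.482, 0.449 and 0.445 in LIGHT libraries. The LIGHT libraries lay close together here, LIGHT replicate 2 included. Krt17 to Krt14 was 0.188, 0.187 and 0.124 in control and 0.326, 0.274 and 0.276 in LIGHT libraries, again without overlap. Krt16 to Krt6a was 0.440, 0.349 and 0.413 in control and 0.549, 0.445 and 0.556 in LIGHT libraries, where the lowest LIGHT value stood just above the highest control. Krt6a to Krt5 was 1.72, 1.49 and 2.18 in control and 1.26, 0.955 and 1.25 in LIGHT libraries. Within the stress keratins, Krt17 therefore took a larger part of the member TPM in LIGHT tumours (3.82% to 6.09% in control, 8.61% to 9.56% in LIGHT libraries) and Krt6a a smaller one (23.1% to 25.1%, and 19.3% to 19.8%).

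**Figure D3:**
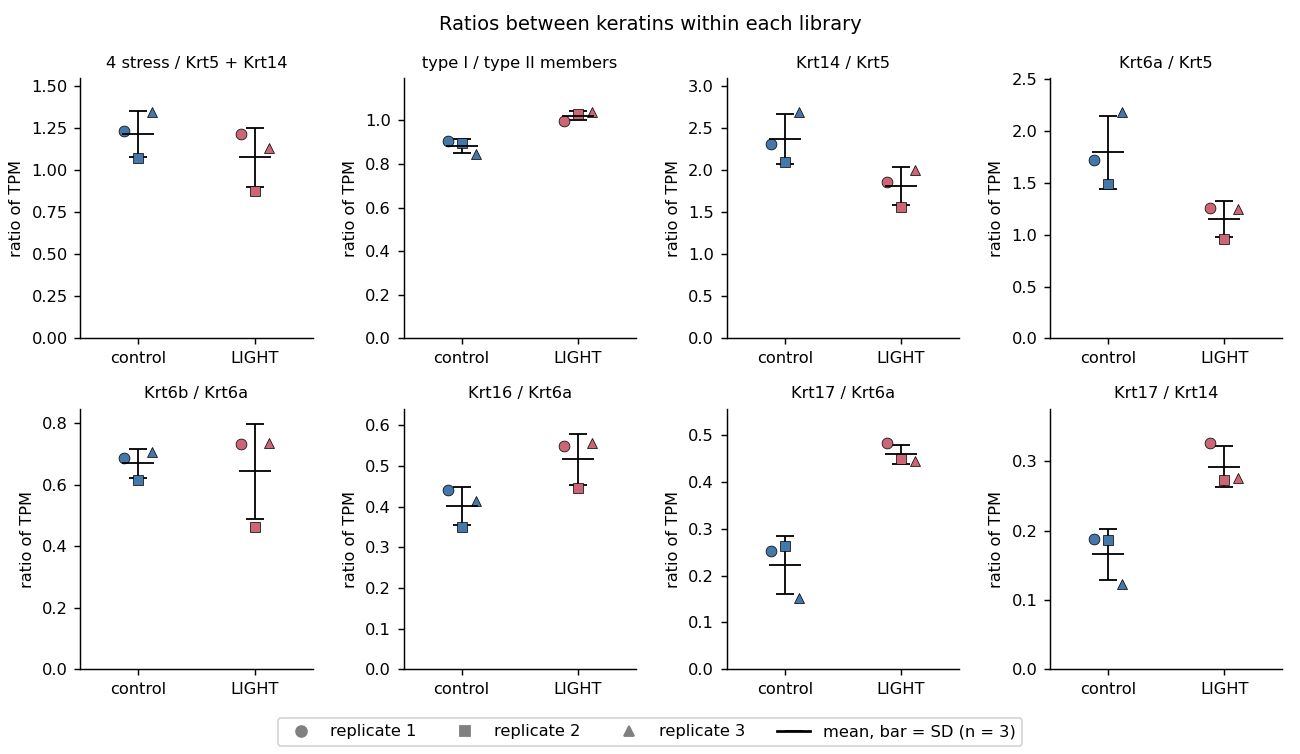
Ratios of TPM between keratins within each of the 3 control (blue) and 3 LIGHT (red) libraries, with mean and SD (n = 3) in black and axes from 0. The stress to basal ratio and the Krt6b to Krt6a ratio overlap between groups, while Krt17 to Krt6a is at 0.152 to 0.264 in control and 0.445 to 0.482 in LIGHT libraries.

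The file listed 51 keratin genes, 44 of them outside the group. The members held 61.4% to 73.9% of all keratin TPM in control and 45.3% to 68.1% in LIGHT libraries. Most of the rest was Krt13 and Krt4, the type I and type II pair of the suprabasal layers of the oral lining, with 24.4% to 34.9% in control and 29.8% to 47.8% in LIGHT libraries. The total over all keratins was 47563 to 58800 TPM in control and 47938 to 58279 TPM in LIGHT libraries, almost the same range.

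**Figure D4:**
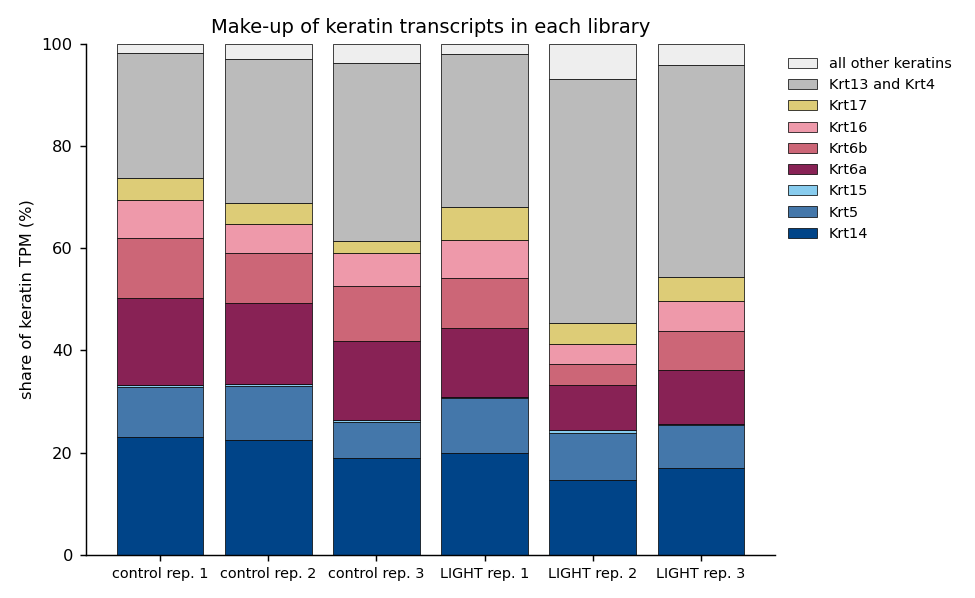
Share of all keratin TPM (%) held by each member, by Krt13 with Krt4 and by all other keratins, 1 bar per library. LIGHT replicate 2 has the smallest share of members, 45.3%, and the control replicate 1 bar the largest, 73.9%.

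Of the 44 other keratins, 29 were tested, 4 rose and 2 fell, where 17.7% of all tested genes were called higher and 5.41% lower. Their median log2 fold change was 0.62 beside -0.37 for the members, a difference that was not tested. Several of the others spread widely within each group. Krt81 was at 6.46 to 51.7 TPM in control and 20.9 to 89.0 TPM in LIGHT libraries, and Krt86 at 3.27 to 35.4 and 14.1 to 69.7 TPM, neither called. Krt4 rose from 3616 ± 1186 to 6917 ± 1764 TPM (SD, n = 3 each, log2 fold change 0.95, limma adjusted p = 0.0359), a call lost without any 1 of control replicates 1 and 2 and LIGHT replicates 2 and 3. The call held in 8 of 17 other settings, and was also lost after trimmed-mean scaling, with no filter on low values, with robust limma and with a muscle or pan-epithelial covariate. Krt8 (20.6 to 58.1 TPM, log2 fold change 1.51) and Krt7 (5.32 to 15.6 TPM, 1.44), type II keratins of simple epithelia, rose, while Krt18, the type I partner of Krt8, was at 72.8 and 63.2 TPM (-0.14, limma adjusted p = 0.713). Krt79 rose at a low level (1.97 to 4.93 TPM). Krt80 fell from 249 to 159 TPM, and Krt12 fell from 1.61 to 0.02 TPM, but Krt12 passed the filter on low values only through the control libraries, which set its direction. Krt13 was at 12099 and 13702 TPM (0.17, limma adjusted p = 0.628), and Krt36 and Krt76, keratins of the tongue and palate, had estimates of 0.62 and 0.52 that did not pass the test.

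**Figure D5:**
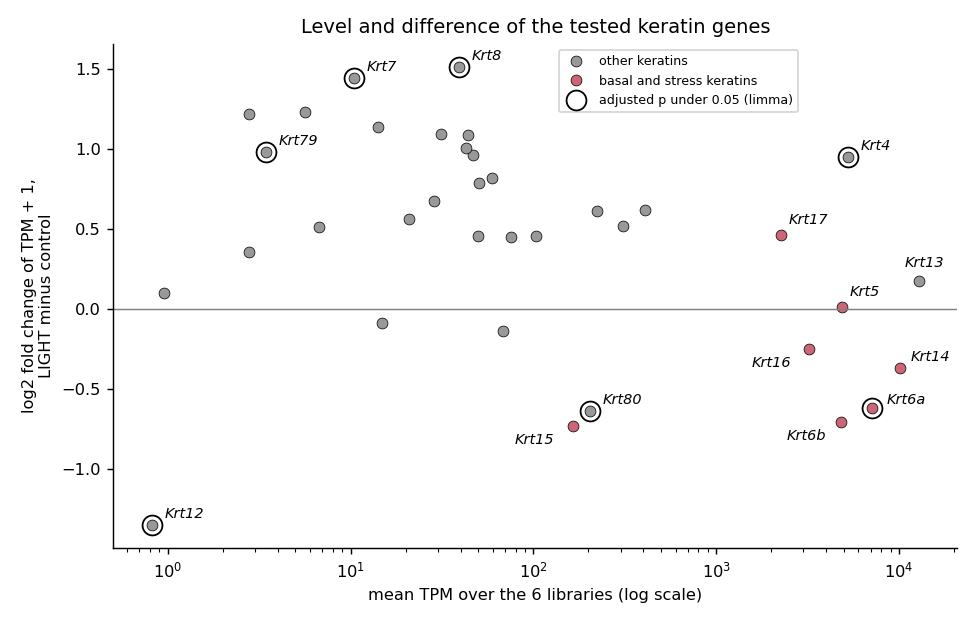
Log2 fold change of TPM + 1, LIGHT minus control, against the mean TPM over the 6 libraries (log axis) for the 36 tested keratin genes, with the 7 basal and stress keratins in red and genes with an adjusted p under 0.05 circled. Members lie at or below 0 except Krt17 and Krt5, and most other keratins lie above 0.

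Counts for genes known to work with these keratins stand beside all tested genes, of which 17.7% were called higher and 5.41% lower. Of 18 other basal keratinocyte genes 0 rose and 1 fell, with a median log2 fold change of -0.03 (0 and 4 after trimmed-mean scaling). By estimate 12 of the 18 were below 0 and 6 above 0. The 4 genes named next, those with the smallest p, were all below 0. Sox2, a transcription factor of oral basal cells, fell by 0.34 on the log2 scale, from 29.6 to 23.2 TPM (limma adjusted p = 0.028), a call lost without LIGHT replicate 2 or 3 or any 1 control library. The integrin chain Itga3 was at 123 and 75.9 TPM, Trp63, the master transcription factor of stratified epithelium and an activator of Krt5 and Krt14, at 67.2 and 51.9 TPM, and the growth factor receptor Egfr at 33.0 and 26.6 TPM; none of the 3 passed the test (limma adjusted p = 0.0905, 0.125 and 0.178).

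Of 21 regulators of basal and stress keratin genes 3 rose and 1, Sox2 again, fell, with a median of -0.08. Rhbdf2, which encodes iRhom2, a membrane protein known to bind Krt16, rose by 0.53 on the log2 scale, from 15.5 to 22.8 TPM (limma adjusted p = 0.0067). Sox9, a transcription factor of progenitor cells, rose from 12.1 to 19.6 TPM (0.67) and Stat3, a cytokine-activated transcription factor, from 63.9 to 85.7 TPM (0.41). The calls of Sox9 and Stat3 were lost on leaving out control replicate 2, control replicate 3 or LIGHT replicate 3, which left 1 rise, and after trimmed-mean scaling 3 rose and 6 fell.

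Of 24 wound-activated keratinocyte genes 1 rose (Sox9) and 5 fell, with a median of -0.31. The falls were in the cytokine gene Il24 (115 to 22.5 TPM, log2 fold change -2.22), in the EGFR ligands Hbegf (88.8 to 39.6 TPM, -1.13) and Tgfa (22.0 to 13.4 TPM, -0.67), and in Serpinb2, a plasminogen activator inhibitor (206 to 84.1 TPM, -1.29). The fifth was Areg, a further EGFR ligand (58.2 to 18.9 TPM, -1.44), outside the rule for named genes and named after its values were seen; its call was lost without control replicate 3 or LIGHT replicate 2 or 3. By estimate 16 of the 24 were below 0 and 8 above 0. Between 4 and 5 fell when any 1 library was left out, and 0 to 3 rose. With the skeletal muscle covariate 2 fell. With the pan-epithelial covariate 0 fell, but that fit called 0 of all tested genes.

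Of 20 linkers and partners of keratin filaments 2 rose and 1 fell, with a median of -0.16. Ppl, periplakin, which links keratin filaments to the cornified envelope and desmosomes, fell by 0.97 on the log2 scale, from 208 to 106 TPM (limma adjusted p = 0.00264). Trim29, a keratin-binding protein of basal cells (220 to 286 TPM, 0.38), and the desmosomal plaque protein Pkp2 (1.38 to 2.26 TPM, 0.46) rose, and Evpl, envoplakin, the partner of periplakin, was at 112 and 93.8 TPM (limma adjusted p = 0.0505). With any 1 library left out 0 to 1 rose and 1 to 4 fell: Trim29 remained called only without LIGHT replicate 2 and Pkp2 only without control replicate 1, while Ppl was called in all 6 such fits. After trimmed-mean scaling 0 rose and 6 fell.

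The genes most like Krt14 over the 6 libraries, among 7926 tested genes with a mean of at least 10 TPM, were Dsp (Pearson r = 0.995), Itprip (0.993), Serp1 (0.992), Prkar2a (0.991) and Capn2 (0.991). Dsp encodes desmoplakin, which anchors keratin filaments to desmosomes, and was at 464 and 368 TPM. The genes most like Krt6a were Gatc (r = 0.998), Afdn (0.993), Itsn2 (0.992), Fam8a1 (0.992) and Ell2 (0.992). Among the members, Krt14 was most like Krt6b and Krt6a (r = 0.970 and 0.969). With 6 libraries, and LIGHT replicate 2 the lowest for Krt14 and Krt6a, such values are descriptions.

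Several cell type markers moved with the groups. Of 21 tested pan-epithelial genes, 9 were called lower and 0 higher (median log2 fold change -0.26), where 5.41% of all tested genes were called lower. Those with the smallest p were Elf3 (296 to 186 TPM), Cldn1 (62.1 to 31.0 TPM), Ocln (9.82 to 5.69 TPM) and Prss8 (73.9 to 31.1 TPM). Estimates were below 0 for 17 of the 21 and above 0 for 4. For 14 genes every LIGHT library was below every control, against 11.6% of all tested genes. For 2 genes every LIGHT library was above every control, against 29.6% of all tested genes. The summed level of the pan-epithelial genes was 2797 to 2918 TPM in control and 2406 to 2511 TPM in LIGHT libraries. The falls numbered 15 with trimmed-mean scaling and 14 with quantile normalization. With 1 library left out they numbered 4 to 8: omitting control replicate 2 gave 4, as did LIGHT replicate 3, and omitting control replicate 3 gave 5, as did LIGHT replicate 2. Each member was also set relative to the summed pan-epithelial genes, a ratio added after seeing the data. Krt6a was at 3.29, 2.70 and 3.10 in control and 2.66, 1.72 and 2.55 in LIGHT libraries. These did not overlap, but the highest LIGHT value was just below the lowest control. Krt14 was at 3.81 to 4.43 and 2.81 to 4.11, which overlap, as did the groups for Krt5, Krt15, Krt6b, Krt16 and Krt17. Of 15 leukocyte markers 12 rose, with summed levels of 570 to 847 TPM in control and 1281 to 1584 TPM in LIGHT libraries.

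Skeletal muscle markers of the host tongue summed to 5879, 3480 and 3802 TPM in control and 5400, 9608 and 6439 TPM in LIGHT libraries, with 1 of 16 called higher (Ryr1, a call lost under both other scalings). That count was 8 without control replicate 1, 5 without LIGHT replicate 1 and 0 without control replicate 2 or 3, and all 16 estimates were above 0. Red blood cell markers summed to 70.0, 453 and 86.8 TPM in control and 119, 2086 and 896 TPM in LIGHT libraries, with 0 of 4 tested called, but 4 of 4 called higher without LIGHT replicate 1. LIGHT replicate 2 was the highest for both, and the lowest for Krt14, Krt6a, Krt6b and Krt16. With the mean of the muscle markers as a covariate the log2 fold change of Krt6a was -0.42 (SE 0.26, limma adjusted p = 0.407), and that of Krt17 was 0.60 (SE 0.36). Of 11 fibroblast markers 1 rose (Thy1), and 2 did without control replicate 2 or LIGHT replicate 1. Of 9 endothelial markers 2 rose (Vwf and Cldn5). Beside these muscle, fibroblast and endothelial counts, 17.7% of all tested genes were called higher. The call of Vwf was lost without LIGHT replicate 3, and that of Cldn5 on leaving out any 1 of control 3, LIGHT 2 and LIGHT 3 and after quantile normalization. Of the 6 tongue papilla keratins that were listed, 0 passed the test, and their sums were 275 to 885 TPM in control and 392 to 1237 TPM in LIGHT libraries. The part of these other cell types in the keratin differences was not tested.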

How the data were processed

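Total RNA from tumour tissue was depleted of ribosomal RNA before sequencing, per the labels' protocols. The deposited values are TPM per gene, 1 column per library, per the file headers; each column sums to the same total, so depth is unknown. HISAT, Bowtie2 and the build GRCm38.p6 are listed in the submitters' processing notes. No label or header states how TPM were quantified or which annotation and filters were used. A gene was tested if 3 or more libraries reached 1 TPM, and log2(TPM + 1) was fitted with limma 3.58.1 (lmFit, eBayes with trend, R 4.3.3), two-sided, Benjamini-Hochberg adjusted p under 0.05, no minimum fold, after a check on simulated data. No 2 libraries held identical values.

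The members, 13 further gene lists, ratios and tests were chosen with earlier results of these data known. Named genes are the members, keratins that were called or among the 10 highest, up to 4 genes of each list by smallest unadjusted p, the 5 most like Krt14 and Krt6a, and Tnfsf14. Windows and alignments of coding sequences used GENCODE M21 transcripts and Biopython 1.88. Alternatives were pseudocounts of 0.1 and 0.5, no filter or one at 5 TPM, trimmed-mean-of-M-values factors computed on the TPM, quantile normalization, a replicate block, limma without trend or robust, muscle or pan-epithelial covariates, and each library left out. Figures used matplotlib 3.10.9.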

Additional observations from a re-analysis of the deposited data

How the results depend on the processing

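With the TPM as deposited 3037 genes were called, against 647 with the skeletal muscle covariate, 0 by limma with the pan-epithelial covariate (418 at an unadjusted p under 0.05) and 1459 to 2661 with 1 library left out (1944 without control replicate 2, 1714 without control replicate 3, 1896 without LIGHT replicate 2 and 1459 without LIGHT replicate 3). The pan-epithelial mean nearly followed the groups, so each SE widened, and its fit gave limma log2 fold changes of -0.094 for Krt5, 0.12 for Krt6a, 0.42 for Krt6b and 0.85 for Krt16. The share of calls that were higher was 76.6% as deposited, 52.3% with trimmed-mean factors and 43.6% with quantile normalization.

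The count of members called was 1, and it was 0 with no filter on low values, with quantile normalization and with either covariate, 2 with the replicate block and 0 to 1 with 1 library left out; the cause was not tested. The call of Krt6a held in 8 of 17 other settings. Krt5 turned to -0.083 after trimmed-mean scaling, and ranged from -0.097 to 0.092 with 1 library left out (-0.097 without control replicate 3 and -0.046 without LIGHT replicate 1). Krt16 ranged from -0.44 to 0.045 with 1 library left out (the highest without LIGHT replicate 2). Krt14, Krt15 and Krt17 kept their direction in all 17 and passed the threshold in 0. The type I to type II difference was 0.21 on the log2 scale over the members and 0.058 over all keratins.

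The replicate numbers were not treated as pairing the libraries: deviations from the group means correlated at 0.37, 0.24 and 0.01 for replicates 1, 2 and 3, and control replicate 3 correlated best with LIGHT replicate 2. With the replicate block 3232 genes were called, and Krt6b was also called (limma adjusted p = 0.0421), as were 4 of 4 tested red blood cell markers and 3 of 6 tongue papilla keratins, all higher.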
